A study of Mus musculus with 207 samples.

Results

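The Ifi200 family is a cluster of interferon-inducible genes that lie side by side on distal mouse chromosome 1, and 7 of them were examined in the macrophages of an F2 intercross: Ifi202b, Ifi203, Ifi204, Ifi205, Ifi207, Aim2 and Mndal. Every probe set that the array annotation lists for a member was taken, which gave 13 of the 45101 probe sets on the array. Of these, 7 probe sets were listed for 1 gene (Ifi202b, Ifi203, Ifi204, Ifi207 and Aim2 with 1 each, Mndal with 2) and 6 for several genes at once. Ifi205 had no probe set of its own and was measured only together with its neighbors. A probe set was tested when its signal reached 80 in at least 69 of the 207 mice. That left 9 member probe sets among 21817 tested, and both Mndal probe sets and 2 of the shared Ifi203 probe sets stayed below it.

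The mice were F2 offspring of a cross between AKR and DBA/2, both carrying the apoE deficiency that every mouse here shares, so there is no group with intact apoE. Bone marrow was taken at 16 weeks of age and cultured for 2 weeks in medium with serum and L-cell conditioned medium, the source of macrophage colony-stimulating factor, and each array holds the RNA of 1 mouse. The 207 mice were 93 females and, for the rest, males, of whom 24 had title numbers from 55 to 78 and 90 had others. They had no treatment beyond the culture. Xist and Eif2s3y signals matched the labelled sex in all 207 mice. The array titles carry a number after "smi" whose meaning the labels do not give. All male titles have a prefix before "smi" that the female titles lack. A difference between the sexes can therefore not be told apart from one between the title series. Whether equal numbers in females and males belong together is not given. All 9 macrophage marker genes passed the signal minimum, with summed signals from 135447 to 230832 in females and from 148536 to 229542 in males. In bulk RNA, fewer expressing cells and less RNA per cell cannot be told apart.

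Most proteins of this family carry the HIN domain, which binds DNA, and several add a pyrin domain, which binds other pyrin proteins. Aim2 senses double-stranded DNA in the cytosol and builds an inflammasome with Pycard and Casp1, p202 (the Ifi202b product) lacks a pyrin domain and is known to restrain Aim2 in mice, and p204 (Ifi204) takes part in DNA sensing and in macrophage differentiation. Most members are switched on by type I interferon, through a DNA motif called the interferon-stimulated response element (ISRE). The cluster is known to vary in gene content and expression between inbred strains, which is why the shape of each distribution was examined in this intercross.

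In the C57BL/6J reference (GRCm38.p6) the 7 genes span chr1:173349547-174031755, with Aim2 at the proximal end, then Ifi207, Ifi204, Mndal, Ifi203 and Ifi202b, and Ifi205 at the distal end. Promoter windows, the 250 bases before an annotated RefSeq start, were in hand for 6 of the 7 genes, and Ifi204 had none. The ISRE core was searched as GAAANNGAAA and the gamma-activated sequence as TTCNNNGAA, on both strands. These motifs were found in 2.98% and 7.02% of all 32851 promoter windows of that length. The ISRE core was found in windows of 4 of the 6 members (Ifi207, Mndal, Ifi203 and Ifi205), and the gamma-activated sequence in 1 (Ifi202b), while the Aim2 window held neither. Mndal and Ifi203 had 2 windows each, of which 1 is printed: the other Mndal window held another ISRE core match, and the other Ifi203 window held none. Aim2 had no called correlation with its relatives and Ifi202b had, as given below, and neither window held an ISRE core. A relation of motifs to correlations was not tested. Each window is read 5′ to 3′ on the strand of its gene (Aim2 plus, all others minus), with the matches in capitals. The windows lie at chr1:173741810-173742059 (Ifi207), chr1:173880188-173880437 (Mndal), chr1:173942493-173942742 (Ifi203), chr1:174031756-174032005 (Ifi205), chr1:173982845-173983094 (Ifi202b) and chr1:173420354-173420603 (Aim2). These are bases of the reference strain and not of AKR or DBA/2.
Ifi207: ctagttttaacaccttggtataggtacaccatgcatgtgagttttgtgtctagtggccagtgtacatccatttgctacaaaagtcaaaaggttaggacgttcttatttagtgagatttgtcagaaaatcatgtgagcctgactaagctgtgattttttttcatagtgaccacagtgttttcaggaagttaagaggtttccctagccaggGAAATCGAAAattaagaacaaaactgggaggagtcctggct
Mndal: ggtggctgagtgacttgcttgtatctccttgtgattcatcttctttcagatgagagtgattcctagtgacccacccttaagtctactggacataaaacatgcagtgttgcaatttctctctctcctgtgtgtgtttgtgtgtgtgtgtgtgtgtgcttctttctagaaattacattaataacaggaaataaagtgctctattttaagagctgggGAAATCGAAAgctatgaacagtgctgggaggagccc
Ifi203: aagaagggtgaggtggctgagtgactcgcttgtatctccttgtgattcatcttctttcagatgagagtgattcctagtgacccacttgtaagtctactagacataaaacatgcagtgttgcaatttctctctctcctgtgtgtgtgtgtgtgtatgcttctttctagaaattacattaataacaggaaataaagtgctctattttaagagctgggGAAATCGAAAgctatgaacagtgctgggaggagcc
Ifi205: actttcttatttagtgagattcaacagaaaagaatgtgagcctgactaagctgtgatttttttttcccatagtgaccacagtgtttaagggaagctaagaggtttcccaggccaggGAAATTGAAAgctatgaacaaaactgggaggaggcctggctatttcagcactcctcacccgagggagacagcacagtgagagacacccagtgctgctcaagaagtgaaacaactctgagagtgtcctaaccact
Ifi202b: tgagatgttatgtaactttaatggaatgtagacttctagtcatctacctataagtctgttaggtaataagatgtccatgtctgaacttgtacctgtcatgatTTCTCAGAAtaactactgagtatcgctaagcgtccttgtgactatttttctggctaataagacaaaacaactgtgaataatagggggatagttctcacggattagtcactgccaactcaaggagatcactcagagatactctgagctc
Aim2: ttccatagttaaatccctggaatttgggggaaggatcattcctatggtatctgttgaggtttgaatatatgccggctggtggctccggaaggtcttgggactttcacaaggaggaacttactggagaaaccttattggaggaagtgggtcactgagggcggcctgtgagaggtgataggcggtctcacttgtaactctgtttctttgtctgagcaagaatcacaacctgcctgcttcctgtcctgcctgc
The printed windows of Ifi207, Mndal and Ifi203 carried the same 10 letters, GAAATCGAAA, between 26 and 41 bases before the start, and Ifi205 carried GAAATTGAAA farther upstream. Of the 6 neighboring family genes with a window, Ifi206, Ifi208, Ifi211, Ifi213 and Ifi214 also held an ISRE core, and Ifi209 held neither motif. A match is a description of letters only.

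Ifi202b gave strong signals in every mouse. Its lowest, median and highest signals were 4181, 13147 and 23167 in females and 3058, 11994 and 23296 in males, and the sexes overlapped over nearly the whole range. The means were 13279.9 ± 4014 (SD, n = 93) and 12505 ± 3679 (SD, all males), a ratio of 1.06 that did not pass the test (two-sided Mann-Whitney test across all tested probe sets, Bonferroni adjusted p = 1). A second probe set, shared by Ifi202b and LOC100044068, gave 2109, 10276 and 24579.8 in females and 2126, 10276 and 21475 in males.

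Aim2 was the member that separated the sexes most. Its signals ran from 69.3 over a median of 126.6 to 286 in females and from 78.3 over 224 to 522 in males. The ranges overlapped, but a female exceeded a male in only 10.8% of all pairs. The male mean of 238 ± 75 (SD, all males) was 1.72 times the female mean of 139 ± 44.5 (SD, n = 93), adjusted p = 7.08e-18. The difference remained in every alternative run, including separate comparisons of the lower-numbered and of the higher-numbered mice, split at the median number of each sex, and the comparison without the 24 males numbered 55 to 78 (1.67-fold, adjusted p = 1.5e-14).

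The probe set listed for Ifi203 alone was dim, with signals of 3.50, 58.5 and 119.7 in females and 7.10, 89 and 254 in males. The male mean was 1.68 times the female mean, 97.9 ± 55.5 (SD, all males) against 58.2 ± 26.3 (SD, n = 93), with an adjusted p of 0.000154. This call, and the entry of the probe set into the test, rested on the 24 males numbered 55 to 78. Without them the ratio was 1.28 and the adjusted p was 1. Aim2 and Ifi203 were the 2 of 9 member probe sets called higher in males, where 16.0% of all tested probe sets were, and 0 of 9 were called higher in females (4 of 9 differed in either direction with Benjamini-Hochberg adjustment, beside 64.4% of all), where 15.3% of all were. Across all tested probe sets the median ratio of males over females was 1.01.

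Ifi207, a nuclear member of the family, had signals of 112.4, 875 and 2025 in females and 131, 616 and 3736 in males. Over all males the difference did not pass the adjusted test (female over male 1.15, adjusted p = 1). Against the 90 other males, without those numbered 55 to 78, females were higher by 1.66-fold, with means of 948 ± 485 (SD, n = 93) and 569.7 ± 211 (SD, n = 90) and an adjusted p of 0.000546. It was the 1 of 9 member probe sets called higher in females there, beside 15.5% of all tested probe sets.

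Ifi204 ranged over 34.4, 241 and 988 in females and 71.7, 240.3 and 1765 in males, with means of 283 ± 180.4 (SD, n = 93) and 337 ± 275 (SD, all males). The probe set shared by Mndal, Ifi211, Ifi205 and Ifi204 gave 92.7, 556 and 2092 in females and 133, 514 and 4158 in males. The probe set shared by Ifi205 and Ifi211 gave 1.40, 191 and 1154 in females and 64.5, 198 and 1783 in males, and Ifi205 is known to control Pycard expression in mouse macrophages. In none of these did the sexes differ past the adjusted test, and the groups overlapped almost completely. The brightest Ifi203 probe set, shared with Ifi203-ps and 2 LOC genes, gave 159, 1540.4 and 4440.5 in females and 212, 1226 and 5190.1 in males (female over male 1.15, adjusted p = 1).

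Mndal, a nuclear protein related to human MNDA, was near the floor of the array. One of its probe sets gave 0.40, 2.40 and 28.2 in females and 0.20, 3.70 and 33.8 in males and reached the minimum of 80 in no mouse. The other gave 1.30, 30.1 and 94.1 and 3.70, 36 and 109.6, with 7 females and 8 males at or above the minimum. Detection calls were not used here, so expression and background could not be separated at these signals.

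**Figure D1:**
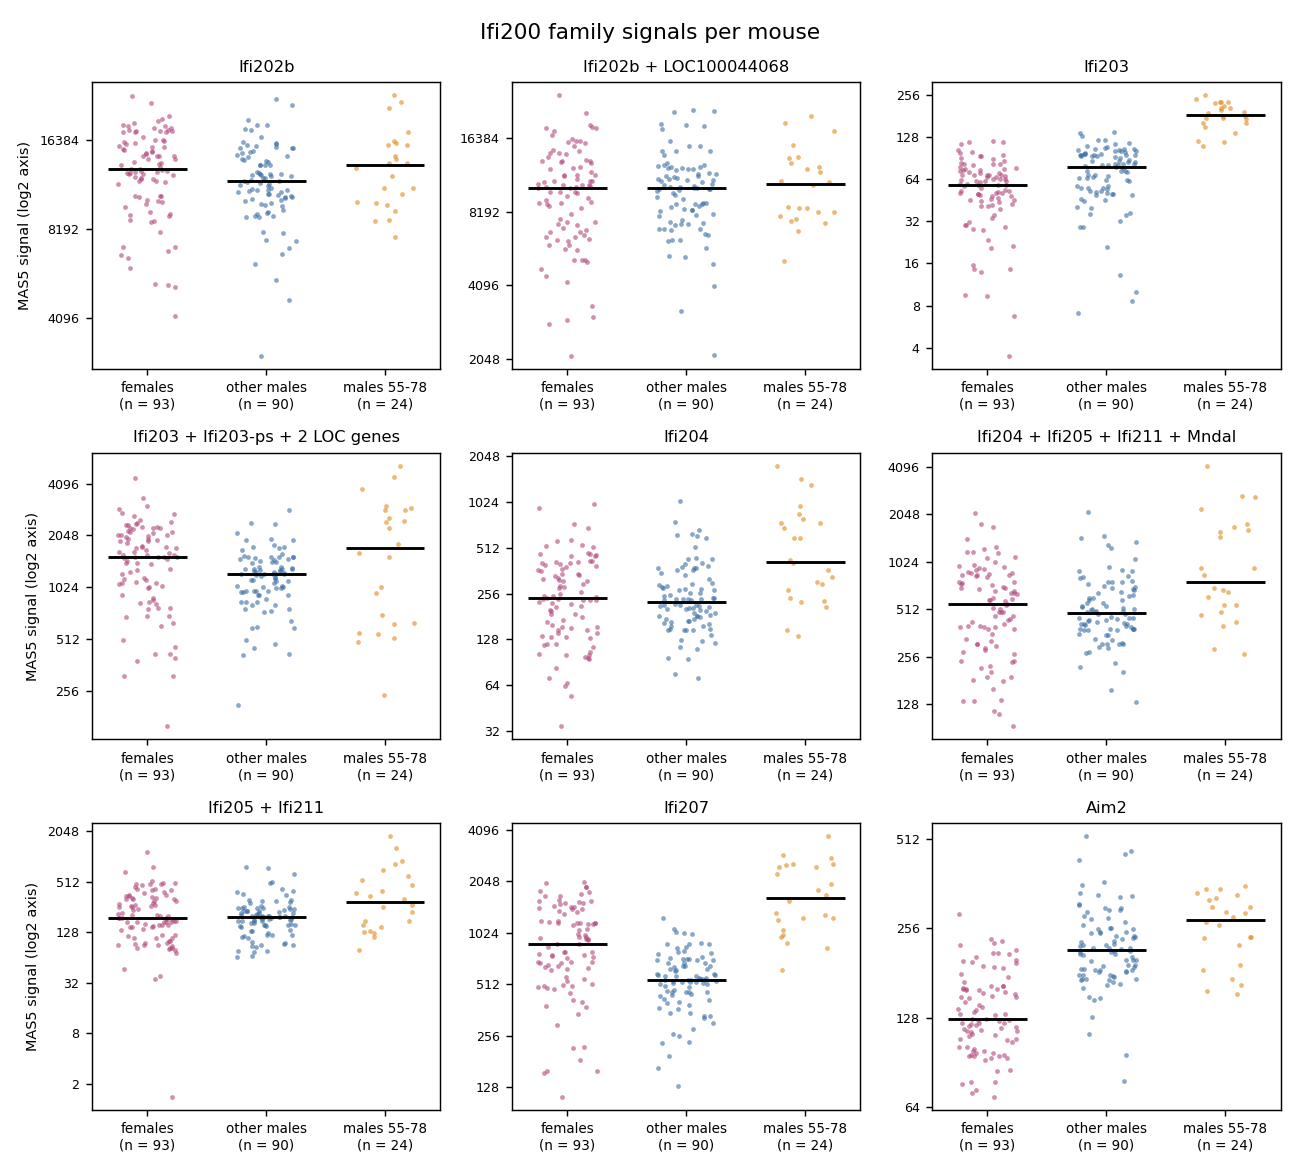
Deposited signal of the 9 tested member probe sets in each mouse (points, log2 axis) for females, other males and the males numbered 55 to 78, with the median as a bar. Aim2 sits lower in females, and Ifi203 and Ifi207 sit higher in the 24 males than in the 90 others.

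The arrays of the sexes also differed in a measure of RNA quality. The Gapdh 3′/5′ ratio, a measure of RNA length, was 0.917 ± 0.0652 in females and 0.791 ± 0.0302 in males (SD). The beta-actin 3′/5′ ratio was closer between the sexes, 1.265 ± 0.0791 in females and 1.228 ± 0.0632 in males (SD). With the Gapdh and beta-actin ratios as covariates in limma, Aim2 remained higher in males (log2 difference 0.71 ± 0.099 SE, Bonferroni adjusted p = 2.32e-07). Ifi203 did not (0.53, adjusted p = 1). In the same fit Ifi207 was lower in males (-1.05, adjusted p = 0.00369), as was the brightest shared Ifi203 probe set (-0.94, adjusted p = 0.00742). That fit called 7.84% of all tested probe sets higher and 7.28% lower in males.

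The 24 males with title numbers 55 to 78 were singled out because their arrays stood apart in an earlier look at these data, with array medians of 76 to 122.3, against 54.7 to 78.9 in the other 90 males. A shift in these mice is therefore read against that of all probe sets. The median log2 difference over all tested probe sets was 0.04 as deposited and -0.53 with each array scaled to the same median. What the numbers stand for is not given, so that a batch and the mice themselves cannot be told apart here. Of all tested probe sets, 15% were called higher and 6.69% lower in them. Ifi203 and Ifi207 were the 2 of 9 member probe sets called higher, and 0 of 9 were called lower (0 at an unadjusted p under 0.05 as well). With Benjamini-Hochberg adjustment 6 of 9 were higher, beside 33.3% of all. The Ifi203 probe set reached the signal minimum of 80 in 86 mice, among them all 24 of the run (lowest signal 110.6). Outside the run it reached 80 in fewer mice than the 69 required, so its entry into the test depended on the run. With no filter on low signals, Ifi203 and Ifi207 were again the probe sets called higher. On the arrays of the run, 22072 to 27501 probe sets reached 80, against 19511 to 22377 in the other 90 males. The 2 Mndal probe sets had medians of 8.95 and 57.85 in the run and 3.25 and 33.5 in the 90. The 2 untested shared Ifi203 probe sets had 16.05 and 58.6 in the run and 14.95 and 40.55 in the 90. Beyond these values, whether dim probe sets in general were raised on these arrays was not tested.

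Ifi207 gave 622, 1636 and 3736 in the 24 males and 131, 544 and 1239 in the other 90. A male of the run exceeded another male in 97.2% of pairs. The mean of 1795 ± 818 (SD, n = 24) was 3.15 times that of 569.7 ± 211 (SD, n = 90), with a Bonferroni adjusted p of 3.17e-08.

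The Ifi203 probe set gave 110.6, 185 and 254 in the 24 and 7.10, 78.3 and 139.6 in the 90, so that the groups met only at their edges. The ratio of means was 2.49, from 185 ± 39.5 (SD, n = 24) against 74.5 ± 29.7 (SD, n = 90), with an adjusted p of 3.69e-09. This p is a description only, because the probe set entered the test through the run and the run was picked by its array medians. For comparison the median ratio over all tested probe sets was 1.02.

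Ifi204 gave 135, 415 and 1765 in the 24 and 71.7, 224 and 1029.6 in the 90, a ratio of 2.17 that missed the Bonferroni threshold (adjusted p = 1). The 4-gene probe set and the Ifi205 and Ifi211 probe set had ratios of 2.09 and 2.02 and missed it too. Ifi202b and Aim2 had ratios of 1.12 and 1.14. With each array scaled to the same median both changed sign, to a log2 difference of -0.40 for Ifi202b and -0.37 for Aim2, and neither was called under either scaling. Ifi203 and Ifi207 were called higher with the scaling too, by 0.75 and 1.09 log2 units.

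The high level ended at both edges of the run. The median of Ifi203 was 73 in the 24 males numbered 31 to 54 and 72.4 in the next 24 from number 79 up, and that of Ifi207 was 564 and 554. Females with the same numbers did not share the high Ifi203 signal: the 24 females numbered 55 to 78 had a median of 51.4, and the other 69 had 62. Their Ifi207 median was 1283 against 728, and their Ifi204 median was 363 against 198. The other 69 include the 31 females numbered 96 or more, whose medians were 494 for Ifi207 and 132 for Ifi204. In the 31 females numbered 33 to 64, some of whom are among the 24, these medians were 1168 and 366. These values of neighbors and females are given with no test, and the numbers of the sexes may not be one series.

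The run was not uniform within itself. The brightest shared Ifi203 probe set was 1613, 2891 and 5190.1 (lowest, median and highest) in the 12 males numbered 55 to 66 and 241, 629 and 2584 in the 12 numbered 67 to 78. The medians of Ifi204 in these 2 groups of 12 were 718 and 255, and those of Ifi207 were 2358 and 1138. The Ifi203 probe set had medians of 181 and 204 in them. The groups were set after the values were seen, and the differences were not tested.

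With the title number, Ifi202b, Ifi204 and Ifi207 fell in females on probe sets of their own. Of the 9 member probe sets 6 fell (limma on log2(signal + 1), Bonferroni adjusted) and 0 rose (0 also at an unadjusted p under 0.05), where 13.2% of all tested probe sets fell and 15.9% rose. Ifi204 had a slope of -0.210 ± 0.028 (SE, n = 93) log2 units per 10 numbers, adjusted p = 1.02e-06. Ifi207 had a slope of -0.205 ± 0.028 (adjusted p = 1.3e-06) and Ifi202b one of -0.095 ± 0.016 (adjusted p = 0.00188). The other 3 were the second Ifi202b probe set, the brightest shared Ifi203 probe set and the 4-gene probe set. Ifi205 and Ifi211 (-0.180 ± 0.040, adjusted p = 0.368), Ifi203 (-0.069 ± 0.033, adjusted p = 1) and Aim2 (0.017 ± 0.017, adjusted p = 1) did not pass. Mndal and Ifi205 had no tested probe set of their own. With the Gapdh and beta-actin ratios as covariates 4 of 9 fell, beside 10.8% of all, and the Ifi202b probe sets were no longer among them, with slopes of -0.078 ± 0.016 (against -0.095) and -0.099 ± 0.023 (against -0.122).

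The decrease was not a steady one. In Ifi202b the lowest, median and highest signals were 10646, 14559 and 23167 in the 31 females numbered 33 to 64, 8657, 15927 and 19770.5 in the 31 numbered 65 to 95, and 4181, 9398 and 21951 in the 31 numbered 96 or more. The mice with the highest numbers were the low ones, although the highest of them still reached the level of the others. The medians of Ifi207 in these 3 groups were 1168, 1068 and 494, and those of Ifi204 were 366, 295 and 132. Of the 10 females lowest in Ifi207, 8 were numbered 91 to 110, and so were 8 of the 10 lowest males. For Ifi202b this held for 7 of the 10 lowest females and 6 of the 10 lowest males, among 20 females and 20 males with such numbers. The same numbers held 3 of the 10 females highest in Ifi202b and 0 of the 10 highest males. For Ifi207 they held 0 of the 10 highest in either sex.

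The rank correlation with the number was -0.650 for Ifi207 in females (Pearson's r -0.634, both with permutation p = 1e-05, the smallest that 100000 permutations give). With the 2 mice at the extremes of the numbering left out, r was -0.610. For Ifi204 rho was -0.615 and r was -0.546 (-0.502 without the 2 mice), and for Ifi202b rho was -0.492 and r was -0.491 (-0.454 without them). Aim2 had a rho of 0.0966 (permutation p = 0.358).

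In males Aim2 was the single member called, and it rose by 0.061 ± 0.011 log2 units per 10 numbers (all males, limma with Bonferroni adjusted p = 0.00592). Among all tested probe sets 17.3% rose and 15.2% fell in males. Its lowest, median and highest signals were 78.3, 189.8 and 306 in the 38 males numbered 9 to 46 and 166, 257 and 522 in the 38 numbered 85 or more, so that they overlapped. Among the 90 males outside the run, rho was 0.494 and r was 0.489 (both permutation p = 1e-05, r 0.490 without the 2 farthest mice), and among the 24 males of the run rho was -0.214 (permutation p = 0.313). The Aim2 call was lost when each array was scaled to the same median (0 member probe sets called, Aim2 slope 0.051 ± 0.012) and when the Gapdh and beta-actin ratios were covariates (0 called, Aim2 slope 0.043 ± 0.014).

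In males 0 of 9 member probe sets fell (3 with Benjamini-Hochberg adjustment, beside 30.7% of all). The slope was -0.068 ± 0.024 for Ifi207 and -0.031 ± 0.025 for Ifi204 (adjusted p = 1 for both, limma). Within the 90 males outside the run, Ifi207 had a rho of -0.443 (permutation p = 2e-05). The difference of the slopes between the sexes was tested itself: for Ifi204 it was 0.179 ± 0.039 log2 units per 10 numbers (male minus female, adjusted p = 0.179), and 0 of 9 member probe sets passed, where 0.651% of all tested probe sets did. Of the 9, 8 had an unadjusted p under 0.05 and 7 passed with Benjamini-Hochberg adjustment, all with the higher slope in males, beside 4.79% of all.

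**Figure D2:**
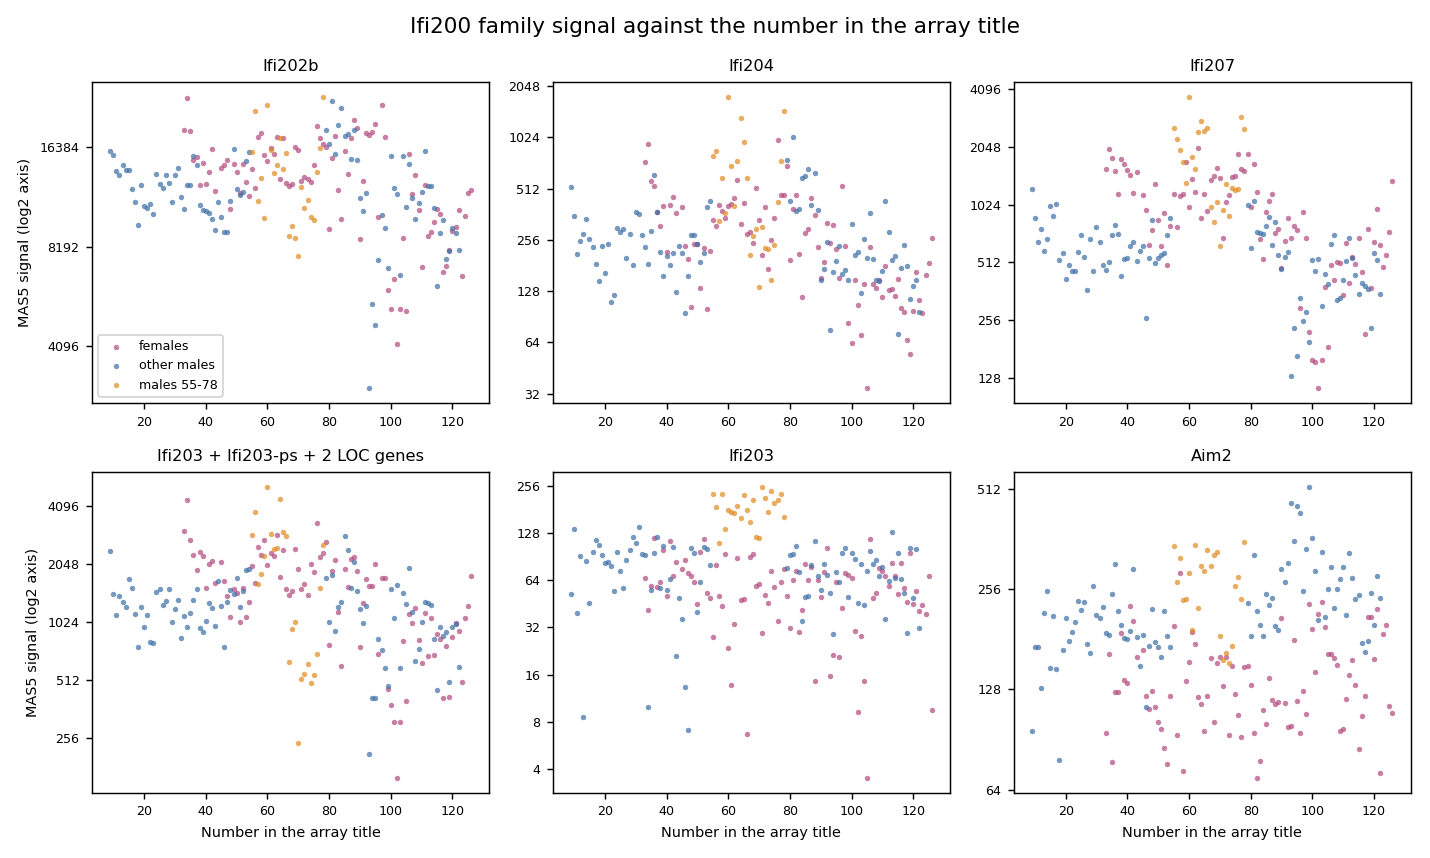
Deposited signal (log2 axis) against the number in the array title for 6 member probe sets, with females, other males and the males numbered 55 to 78 in separate colours. Many of the lowest mice of Ifi202b and Ifi207 are numbered 91 to 110 in both sexes, the 24 males of the run stand above the rest for Ifi203, and the female medians of Aim2 in the low, middle and high numbers (117.9 to 152) lie under those of the males (189.8 to 257).

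Other values moved with the number as well. The summed signal of 6 neutrophil markers, of which 2 passed the minimum, ranged from 359 to 19389 in females and from 376 to 32497 in males. Against the number it had a rho of 0.671 in females and 0.709 in the 90 males, and its rho with Ifi202b was -0.564 and -0.151. Of 4 B cell markers, 3 were on the array and 1 passed the minimum. Their sum, from 76.1 to 1002 in females, had a rho of -0.459 with the number and 0.350 with Ifi202b in females. In the 90 males these were -0.153 and 0.0909. The summed macrophage markers had a rho with the number of 0.342 in females and 0.281 in the 90 males. The array median had a rho with the number of 0.436 in females and 0.284 in the 90 males. The part of these in the trends was not tested, apart from the array scaling, under which 7 of 9 member probe sets fell in females, beside 21% of all.

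Most interferon response genes fell with the number in females too. Of 24 such genes that passed the signal minimum, 19 fell and 1 rose with the number in females, beside 13.2% and 15.9% of all tested probe sets. In males 3 fell and 2 rose, which is under the 15.2% and 17.3% of all. With Benjamini-Hochberg adjustment 15 of the 24 fell in males, beside 30.7% of all, and 2 rose, beside 34.4%. Rsad2 (viperin) had a slope of -0.288 ± 0.030 log2 units per 10 numbers in females (adjusted p = 4.39e-11), Cmpk2, its neighbor in the genome, -0.301 ± 0.036 (adjusted p = 1.85e-08) and Ifit2, an inhibitor of viral translation, -0.327 ± 0.041 (adjusted p = 6.52e-08). The gene that rose was Irf1, an interferon-gamma induced transcription factor (0.087 ± 0.017, adjusted p = 0.0194). The median slope of the list was -0.165 in females and -0.061 in males, beside a median over all tested probe sets of 0.0046 and 0.0024. The list was compiled with earlier results of these data in view.

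**Figure D3:**
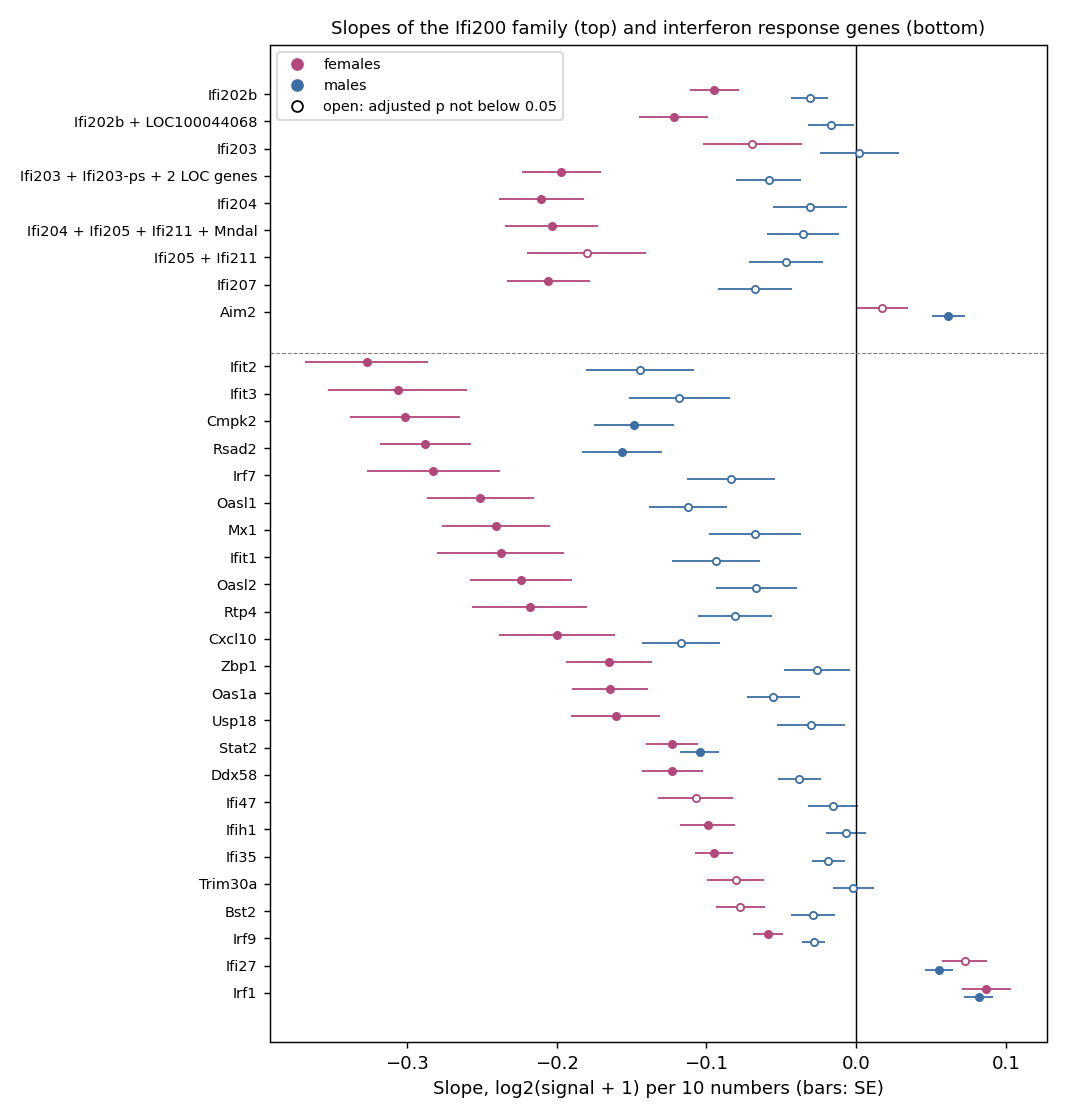
Slope of log2(signal + 1) per 10 title numbers with its SE in females and males, for the 9 tested member probe sets (top) and 24 interferon response genes (bottom), filled where the Bonferroni adjusted p was below 0.05. In females 6 member probe sets and 19 interferon genes have filled points left of 0.

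None of the interferon receptors and their kinases fell. Of 7 such genes, 0 fell (0 with Benjamini-Hochberg adjustment as well) and 4 rose with the number in females (Ifnar2, Ifngr1, Jak1 and Jak2), and Jak2, the kinase of the interferon-gamma receptor, rose by 0.326 ± 0.019 log2 units per 10 numbers (adjusted p = 1.23e-26). These counts and the next stand beside 13.2% of all tested probe sets that fell in females and 15.9% that rose. Of 12 DNA-sensing and inflammasome genes 2 rose, Il1b and Il18, and 1 fell, Zbp1, a Z-DNA sensor that is itself on the interferon list. Of 21 genes that flank the cluster on distal chromosome 1, 4 fell (Exo1, Ncstn, Pea15a and Slamf8) and 0 rose (5 rose with Benjamini-Hochberg adjustment). Between the sexes, 2 of the 24 interferon response genes were higher in females (Irf1 and Ifih1) and 1 in males (Stat2, 1.35-fold, adjusted p = 0.00365), and 0 of the 24 separated the run of males (55 to 78) from the other 90 (3 were higher and 1 lower at an unadjusted p under 0.05). These counts lie under the shares of all tested probe sets, which were 15.3% higher in females, 16.0% higher in males, and 15% higher and 6.69% lower in the run.

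Most members followed each other from mouse to mouse. Of the 36 pairs of tested member probe sets, 21 were positively rank-correlated in females past Bonferroni over all tested probe sets and 0 negatively (1 by a permutation test with Benjamini-Hochberg adjustment over the pairs), where 5.42% of the pairings of these probe sets with all others were positive and 7.41% negative. The 21 pairs were all those among 7 probe sets, which left out Aim2 and the Ifi203 probe set, a grouping taken from these values. Their rho ran from 0.662 to 0.945 with a median of 0.857, and r from 0.654 to 0.953 (permutation p = 1e-05 for each pair, the smallest possible). Without the 2 mice farthest from the median signal the lowest r was 0.623.

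In the 90 males outside the run the same 21 pairs were called, with rho from 0.606 to 0.921 (median 0.759), where 1.80% of pairings with all other probe sets were positive. In the 24 males of the run 19 of the 21 were called, with rho from 0.779 to 0.982, where 0.428% were. Ifi202b and Ifi204, which share no listed probe set, had a rho of 0.834 in females and 0.866 in the 90 males. Ifi202b and Ifi207 had 0.662 and 0.717, and Ifi204 and Ifi207 had 0.857 and 0.725.

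A shared probe set cannot be assigned to a single gene, and pairs whose listed genes overlap, such as the Ifi202b probe sets, are not independent measures. Sequence of the family members is close to identical in places, and cross-hybridization among them cannot be told apart from co-variation with these data. The correlations remained when a straight line on the number was taken out, with all 21 pairs called in females (rho from 0.618 to 0.919).

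Aim2 stood outside this group. Its 8 pairs with the other member probe sets had rho from -0.284 to -0.0896 in females and from -0.283 to 0.140 in the 90 males, and 0 of 8 were called in either (1 in females and 2 in the 90 males were negative at a permutation p under 0.05). The lowest in females was with Ifi202b (-0.284, r -0.319, permutation p = 0.00589). The Ifi203 probe set had no called pair either (1 in the 90 males was positive at a permutation p under 0.05), with rho from -0.125 to 0.190 in females and from 0.0841 to 0.220 in the 90 males. It had a rho of 0.146 with the brightest shared Ifi203 probe set in females, although the annotation lists Ifi203 for both.

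**Figure D4:**
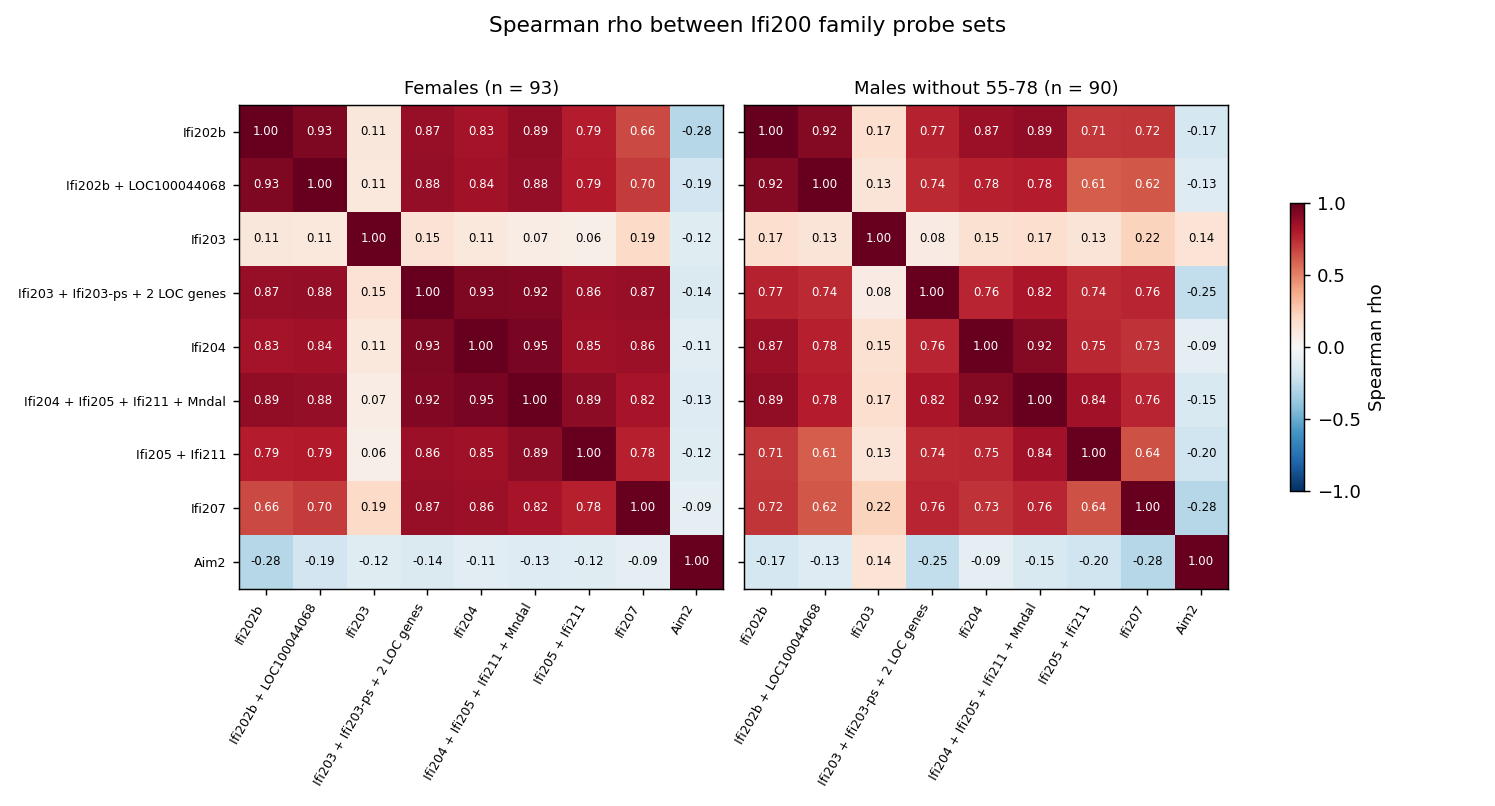
Spearman rho between the 9 tested member probe sets in 93 females (left) and in the 90 males outside the run 55 to 78 (right), on a scale from -1 to 1. The pairs among 7 probe sets are all positive, with a lowest rho of 0.662 in females and 0.606 in males, and the rows of Ifi203 and Aim2 are pale.

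Outside the family, the 3 genes with the pattern most like Ifi202b and the 3 most like Ifi204 were all on the interferon response list. None of the 3 most like Ifi207 was on this fixed list, over which no median rho was taken for Ifi207. For Ifi202b in females they were Oas1a, a sensor of double-stranded RNA (rho 0.957, and 0.896 in the 90 males), Rtp4 (0.954 and 0.910) and Ddx58, which encodes the RNA sensor RIG-I (0.945 and 0.829). For Ifi204 they were Mx1, an antiviral GTPase (0.917 and 0.792), Trim30a (0.916 and 0.804) and Ifit2 (0.890 and 0.662). Ifi207 was closest to Eif2ak2, the RNA-activated kinase PKR (0.842 and 0.719), to Gm6377 (0.836 and 0.60) and, with the opposite sign, to Lrpap1 (-0.834 and -0.594). None of these genes lies on chromosome 1.

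Aim2 had no gene of that list among its closest 3. Its closest genes in females were Tfe3 (-0.582), Acyp1 (0.573) and Zcchc4 (0.565), with -0.151, 0.451 and 0.373 in the 90 males. For the Ifi203 probe set the closest, Cryzl1, reached -0.451 in females and -0.144 in the 90 males. Over the 24 interferon response genes the median rho was 0.888 with Ifi202b, 0.815 with Ifi204 and -0.244 with Aim2 in females, and 0.769, 0.690 and -0.209 in the 90 males. In the males numbered 55 to 78 these medians were 0.851, 0.913 and 0.347. All these correlations share the same arrays and their scaling, and are given as descriptions. Over the 21 flanking genes of distal chromosome 1 the median rho with Ifi202b was -0.0118 in females. Over the 12 DNA-sensing and inflammasome genes the median rho with Aim2 was -0.134.

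Ifi209, another gene of the cluster and the only one outside the members with a tested probe set of its own, also followed Ifi202b. Its brighter probe set had a rho of 0.808 with Ifi202b in females and 0.576 in the 90 males.

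No tested member probe set showed levels set apart by an empty stretch. In an F2 cross a strong difference between the parental alleles of a gene, acting on its own level, can place mice in distinct classes. Of the genotyped males, as many as the males on arrays but in columns that could not be matched to single arrays, 26 to 28 were AKR homozygous, 52 to 55 heterozygous and 31 to 35 DBA/2 homozygous at 9 markers between 170 and 180 Mb on chromosome 1 (positions as in the deposited genotypes, whose genome build was not given in the sources used here). Both alleles of the region were therefore well represented in the genotyped males. Levels by genotype were not computed, so an allelic difference too small to leave a gap was not tested.

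The widest gap between neighboring mice, with at least 6 mice on each side, was 0.43 log2 units in females, for Ifi207, between signals of 220.2 and 296 with 7 females below it. In males it was 0.25, for Ifi204. A gap of 1 was found in 0 of 9 member probe sets in either sex, and in 58 of all tested probe sets in females and 27 in males. The best division of the sorted females into 2 groups took 67.7% of the variance of Ifi202b, 69.1% of Aim2 and 63.6% of Ifi207, beside a median of 63.9% over all tested probe sets and a 95th percentile of 72.5%. In the 90 males the shares were 52.9%, 56.8% and 60.3% beside a median of 64.8%. The largest share of any member probe set, 84.8% in females, belonged to the Mndal probe set that lies near the floor, with a highest female signal of 28.2. Bases that differ between the strains within a probe can also move a signal, and this was not tested.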

How the data were processed

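Bone-marrow macrophages of 207 F2 mice were profiled with 1 Affymetrix array per mouse, so the replicates were separate mice, and females and males were grouped by the source label. The deposited values were signal intensities that the authors made, per the submitters' processing notes, with MAS5, which scales each array as a whole. A deposited genotype table with number codes was used only for counts at distal chromosome 1, in the columns whose sex line gives male. Those columns name a mouse but no array, and 95 other columns were not used. The number of arrays limits the precision.

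Probe sets were named from the platform annotation with symbols updated through RefSeq (GRCm38.p6), and promoter sequences were taken from RefSeq. Probe sets with a signal of at least 80 in at least 69 mice were tested (21817). Detection calls were not used here. Groups were compared by two-sided Mann-Whitney tests on the signal, trends by limma on log2(signal + 1) with the number from the array title, and pairs of probe sets by Spearman's rho, all with Bonferroni adjustment over all tested probe sets. Pearson's r and 100000 permutations were added for each pair and number relation. The distribution shape was described by the widest gap with at least 6 mice on each side and the best division into 2 groups. Named were all member probe sets, up to 3 genes of each fixed list with the smallest p, and the 3 genes with the largest absolute rho to each member in females. Genes named beside counts of 5 or fewer were named after their values were seen. The members and lists were chosen with earlier results of these data known. The scripts were tested on simulated data. Alternatives were array scaling, no filter, a pseudocount of 32, Benjamini-Hochberg adjustment, limma or Spearman's rho as the test, and left-out or split mice. The 3′/5′ ratio covariates were added after the data were seen. Software was Python 3.11.15, NumPy 2.4.6, pandas 2.3.3, SciPy 1.17.1, matplotlib 3.10.9, R 4.3.3 and limma 3.58.1.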

Additional observations from a re-analysis of the deposited data

How the results depend on the processing

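Of the counts of member probe sets or pairs under the alternatives, 76 stayed within 1.5 times of the reported one and 15 did not. Of 9 probe sets, 2 were higher in males, and 1 was when the males numbered 55 to 78 were left out, in the lower-numbered mice, in the higher-numbered mice and with the Gapdh and beta-actin ratios as covariates. The count higher in females, 0, became 2 with Benjamini-Hochberg adjustment, 1 without the males numbered 55 to 78 and 2 with the covariates. The 2 probe sets higher in the males numbered 55 to 78 became 6 with Benjamini-Hochberg adjustment. The 1 that rose with the number in males became 0 with array scaling and 0 with the covariates, and the 0 that fell became 3 with Benjamini-Hochberg adjustment. The slopes higher in males, 0, became 1 with array scaling and 1 without the males numbered 55 to 78 (Ifi204 both times), and 7 with Benjamini-Hochberg adjustment. The negative pairs in females, 0, became 1 by the permutation test with Benjamini-Hochberg adjustment over the pairs. The cause was not tested in any of these. Of 297 values of single probe sets under an alternative, 8 lost the call, 25 gained one and 32 had the other sign while called in neither. The covariate fits and the array scaling of the slope difference were added after the data were seen. No paired analysis was possible because replicate numbers only follow the order of the samples and pair no mice.

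The limits lie in what the arrays and labels give. Members share near-identical sequence, and cross-hybridization cannot be told apart from expression. Ifi205 had none of its own. Mndal stayed near the floor of the array. The meaning of the title number is not given, so mouse, culture and hybridization order cannot be told apart. The form of the titles coincides with sex. The genotyped mice could not be matched to arrays, so levels by genotype were not computed.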
